A study of Homo sapiens with 12 samples.

Results

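The genes described here are CARM1, PRMT1, PRMT2, PRMT3, PRMT5, PRMT6, PRMT7 and PRMT9, which encode protein arginine methyltransferases, and WDR77, which encodes the obligate partner of PRMT5. They are 9 of the 63036 rows of the deposited expression table, found by their Ensembl identifiers. CARM1 was selected on its measured TPM values: after RNF26 itself it had the clearest difference between 2 cell lines in the effect of RNF26. Its values are therefore given as a description with no test. The other 8 were taken with it as its family, with earlier results of these data known, and were tested. All 9 genes reached at least 4.67 TPM (transcripts per 1000000) in every library, so each passed the filter of 1 TPM in at least 3 libraries without the help of any single group.

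Protein arginine methyltransferases move methyl groups from S-adenosylmethionine onto arginine side chains of histones, splicing factors and other proteins. Type I enzymes leave asymmetric dimethylarginine, type II enzymes leave symmetric dimethylarginine, and type III enzymes stop at monomethylarginine. CARM1, a type I enzyme, is best known as a transcriptional coactivator of nuclear receptors, and it can also bind beta-catenin and act on Wnt target genes.

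The 12 libraries form 4 groups of 3, made from 2 human colorectal carcinoma lines. HCT15, which carries a mutant APC gene, was present as cells overexpressing RNF26 (ov_RNF26) and as control cells (con), and HCT116, which carries a mutant beta-catenin gene, was present in the same pair of states. RNF26 is a RING-type ubiquitin ligase anchored in the endoplasmic reticulum, and the series title links it to the Wnt pathway. The labels do not say how RNF26 was introduced, what the control cells carry, or whether a group is 1 clone or a pool. Nor do they say that the libraries of a group came from separate cultures, so each p-value speaks of the spread among the libraries at hand, which may be technical.

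RNF26 was higher in its own libraries in both lines, by very different amounts. It averaged 54.2 TPM in HCT15 RNF26 cells, against 27.0 TPM in HCT15 control cells, a ratio of 2.01. The corresponding means were 296 TPM in HCT116 RNF26 cells and 16.8 TPM in HCT116 control cells, a ratio of 17.6. Sequencing depth is unknown because TPM divides it out, and between 13582 and 14135 genes reached 1 TPM in a library. Mitochondrial transcripts took 18.4% to 19.2% of the total in HCT15 RNF26 libraries, 16.4% to 25.9% in HCT15 control libraries and 20.2% to 22.5% in HCT116 libraries. Ribosomal protein genes took 26.3% to 27.5% in HCT15 RNF26 libraries, 17.5% to 24.3% in HCT15 control libraries and 21.4% to 22.1% in HCT116 libraries. HCT15 control replicate 3 stood apart at 25.9% mitochondrial and 17.5% ribosomal protein transcripts. Of 9 epithelial markers 8 reached 1 TPM, with EPCAM at 193 to 572 TPM, while the intestinal factor CDX1 stayed at or below 0.07 TPM. Summed markers of fibroblasts reached at most 2.8 TPM and those of endothelium at most 0.32 TPM, and of 5 leukocyte markers CD68 alone passed 1 TPM.

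CARM1 was lower with RNF26 in HCT15, while in HCT116 its arms overlapped. CARM1 (ENSG00000142453) lies on the plus strand of chromosome 19 of GRCh38, from 10871513 to 10923070. It stood at 27.2, 28.0 and 26.6 TPM in HCT15 RNF26 libraries, against 57.7, 59.6 and 60.5 TPM in HCT15 control libraries. The highest HCT15 RNF26 library lay far below the lowest HCT15 control library. In HCT116 the values were 32.4, 34.1 and 29.7 TPM in RNF26 libraries, against 31.3, 32.0 and 30.7 TPM in control libraries, and the arms overlapped. The log2 fold change was -1.09 in HCT15 (SE 0.0611), a mean level 54.0% lower, and 0.03 in HCT116 (SE 0.0611), which makes a difference of -1.12 between lines (SE 0.0864). Fold changes are on the log2(TPM + 1) scale. Of all tested genes 1.09% had a lower fold change in HCT15, a low place that the selection of CARM1 favoured. In bulk RNA, fewer cells with the transcript and less of it per cell cannot be told apart. HCT15 control cells held 1.89 times the CARM1 of HCT116 control cells, while HCT15 RNF26 cells held 0.849 times that of HCT116 RNF26 cells. The 3 HCT15 control libraries are thus the high ones, and the other 9 libraries lie between 26.6 and 34.1 TPM.

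**Figure D1:**
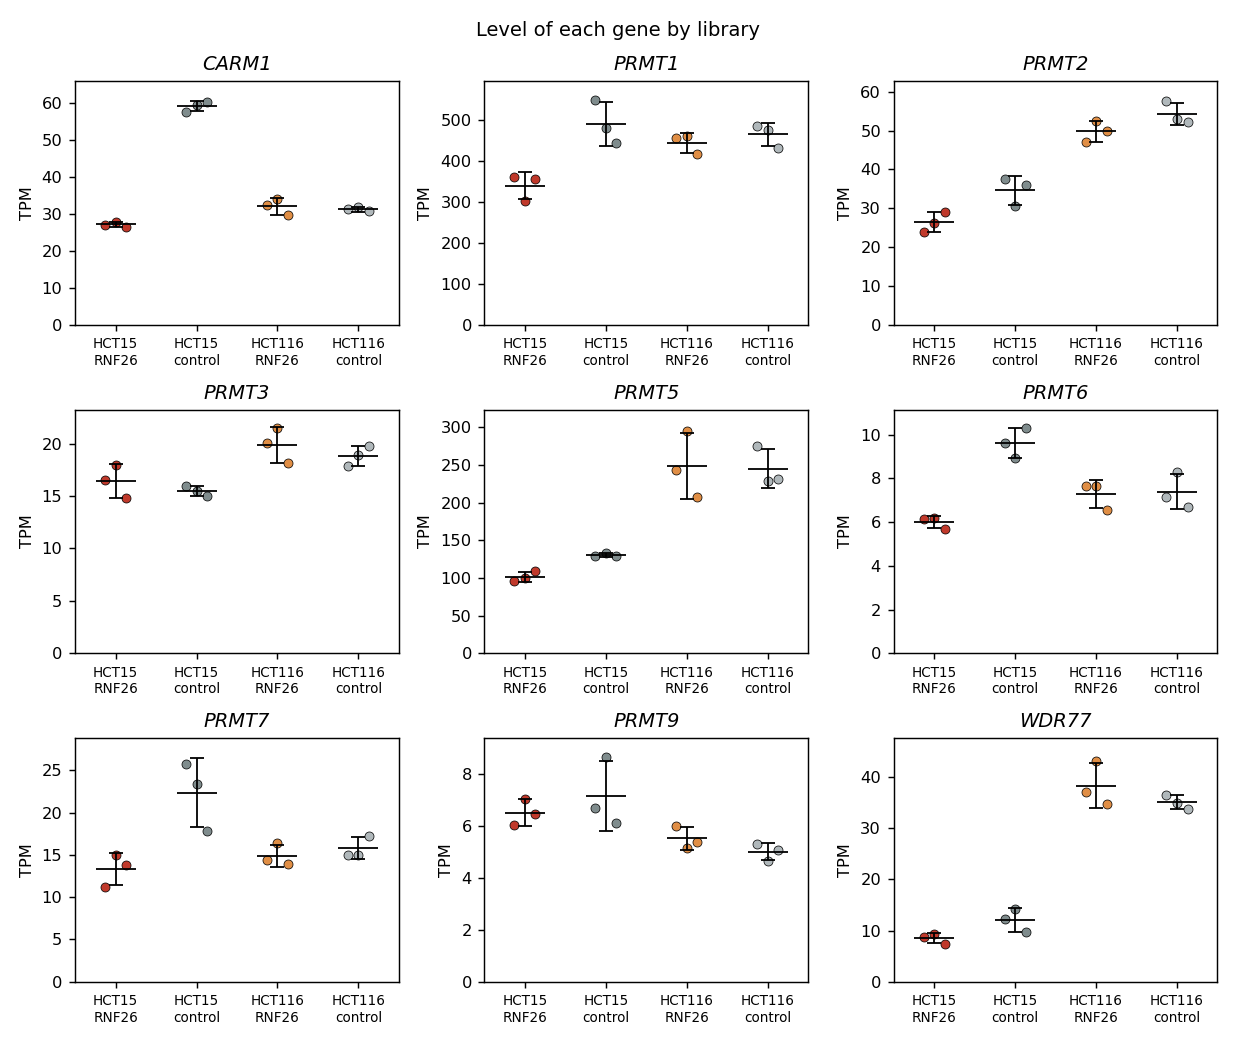
TPM of each of the 9 genes by library, with points for the 3 libraries of each group, horizontal lines for the mean and bars for the SD, and a separate axis per gene that starts at 0. CARM1 in HCT15 control libraries lies at 57.7 to 60.5 TPM, apart from its other 9 libraries at 26.6 to 34.1 TPM.

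The stretch just upstream of CARM1 is shown with those of PRMT6 and PRMT9 because the 3 genes moved to different extents in HCT15 and their upstream windows could be cut free of annotated genes. The sequences are from RefSeq (GRCh38.p14), on the strand of the gene, and capitals mark GGGCGG or its reverse complement CCGCCC, the core of the GC box bound by SP1-type factors. CARM1 is given for chr19:10871303-10871512, PRMT6 for chr1:107056424-107056673 and PRMT9, on the minus strand, for chr4:147684231-147684413.
CARM1: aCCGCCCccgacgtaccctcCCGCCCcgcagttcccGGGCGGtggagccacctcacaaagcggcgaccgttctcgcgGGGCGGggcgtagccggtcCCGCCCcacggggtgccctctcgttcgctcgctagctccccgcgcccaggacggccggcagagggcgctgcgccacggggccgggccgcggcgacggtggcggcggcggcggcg
PRMT6: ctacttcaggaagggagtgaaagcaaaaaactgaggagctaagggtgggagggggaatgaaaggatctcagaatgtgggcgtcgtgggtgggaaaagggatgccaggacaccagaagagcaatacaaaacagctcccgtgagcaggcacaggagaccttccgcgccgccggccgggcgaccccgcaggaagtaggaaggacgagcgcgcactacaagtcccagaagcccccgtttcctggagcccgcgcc
PRMT9: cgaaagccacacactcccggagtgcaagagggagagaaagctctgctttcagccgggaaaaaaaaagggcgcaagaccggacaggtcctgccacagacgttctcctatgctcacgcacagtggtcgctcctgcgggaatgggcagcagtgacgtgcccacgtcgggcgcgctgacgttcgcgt

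The full 250 bases before the first RefSeq start of CARM1 were 81.6% G or C, with 45 CpG pairs and 5 GC boxes over both strands. The PRMT6 window was 60.4% G or C with 16 CpG pairs and no GC box. PRMT9 had 64.8%, 27 CpG pairs and 1 GC box, which lies outside the bases shown. Over all 35116 RefSeq windows of this length the median was 58.0% G or C and 11 CpG pairs, and 42.6% held a GC box. The E-box CACGTG was found in the PRMT3 window alone among the 9 genes (6.34% of all windows), and CTTTGAT, a core of the sites bound by TCF factors, on either strand in none (2.26% of all windows). The window of PRMT3, which was not called in HCT15, was 76.8% G or C with 43 CpG pairs and 2 GC boxes. A second CARM1 window had 70.0%, 16 CpG pairs and 2 GC boxes. These matches describe letters in a window, not sites in use, and a link with the fold changes was not tested.

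Among the other type I enzymes, PRMT1, PRMT2 and PRMT6 were lower with RNF26 in HCT15 and PRMT3 was not called. PRMT1, which makes most of the asymmetric dimethylarginine of human cells, stood at 361, 303 and 358 TPM in HCT15 RNF26 libraries, against 550.0, 482 and 444 TPM in HCT15 control libraries. Its arms did not overlap, and its log2 fold change was -0.53 (SE 0.0950, limma adjusted p = 0.00148). PRMT6, a nuclear enzyme that acts on histones, stood at 6.14, 6.18 and 5.67 TPM in HCT15 RNF26 libraries, against 9.61, 8.92 and 10.3 TPM in HCT15 control libraries. Every HCT15 RNF26 library was again below every HCT15 control library, with a log2 fold change of -0.60 (SE 0.0958, adjusted p = 0.000741). PRMT2, a weak methyltransferase with an SH3 domain, had 23.9, 26.2 and 29 TPM in HCT15 RNF26 libraries, against 37.5, 30.5 and 36.0 TPM in HCT15 control libraries (log2 fold change -0.38, SE 0.0924, adjusted p = 0.00798). PRMT2 lost its call under 3 alternatives, among them median-ratio scaling (adjusted p = 0.202, range over alternatives 0.00207 to 0.300). PRMT3, which methylates a protein of the small ribosomal subunit, had 16.5, 18.0 and 14.8 TPM in HCT15 RNF26 libraries, against 16.0, 15.5 and 15.0 TPM in HCT15 control libraries, and the arms overlapped. Its log2 fold change was 0.08 (adjusted p = 0.535), and under median-ratio scaling, which raises the median fold change of all genes in HCT15 to 0 against -0.17 on the deposited scale, it was 0.28 and called higher (adjusted p = 0.00931).

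The type II and type III enzymes and WDR77 were also mostly lower in HCT15. PRMT7, the monomethylating enzyme, stood at 11.2, 15.0 and 13.8 TPM in HCT15 RNF26 libraries, against 25.8, 23.4 and 17.8 TPM in HCT15 control libraries. Its arms did not overlap, and the log2 fold change was -0.70 (SE 0.138, adjusted p = 0.00262). PRMT5, the main source of symmetric dimethylarginine, had 95.3, 100.4 and 109 TPM in HCT15 RNF26 libraries, against 129, 133 and 129 TPM in HCT15 control libraries (log2 fold change -0.36, SE 0.116, adjusted p = 0.0319). WDR77 forms the active complex with PRMT5 and stood at 8.83, 9.30 and 7.38 TPM in HCT15 RNF26 libraries, against 12.3, 14.2 and 9.66 TPM in HCT15 control libraries (log2 fold change -0.45, SE 0.130, adjusted p = 0.0195). For both genes the arms were apart, but the call depended on the processing and on single libraries. PRMT5 was not called with no filter (adjusted p = 0.0809), under median-ratio scaling (0.347) or with GC content and length corrected for (0.107). WDR77 was not called under these settings either (0.0506, 0.133 and 0.135), nor in separate fits of each line (0.10). PRMT5 was not called without any 1 HCT15 control library or without HCT15 RNF26 replicate 1 or 2 (adjusted p of 0.0576 to 0.107), and WDR77 was not called without HCT15 control replicate 1 or 2 or HCT15 RNF26 replicate 3 (adjusted p of 0.0575 to 0.0758). PRMT9, which methylates the splicing factor SF3B2, had 6.03, 7.05 and 6.47 TPM in HCT15 RNF26 libraries, against 6.70, 8.66 and 6.10 TPM in HCT15 control libraries, with overlapping arms (log2 fold change -0.11, adjusted p = 0.522).

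In all, limma called 6 of the 8 tested genes lower in HCT15, beside 31.2% of all 15584 tested genes, and the arms of 6 of 8 did not overlap, beside 43.1% of all tested genes. The share of all genes called lower rose to 41% with a filter of 5 TPM, where the same 6 members were called. By decile of transcript GC content it ran between 6.26% (lowest GC) and 54.1%. The median log2 fold change was -0.42 over the 8 genes and -0.17 over all tested genes. PRMT6 and PRMT7 kept their call under all 20 alternatives, with adjusted p of 0.000506 to 0.0104 for PRMT6 and 0.000793 to 0.0363 for PRMT7. With the GC content and length of transcripts corrected for, they were the 2 genes still called. Under median-ratio scaling PRMT1, PRMT6 and PRMT7 were called lower and PRMT3 higher. Without HCT15 control replicate 3, the library with the high mitochondrial share, 5 of 8 were called and the CARM1 fold change was -1.08. The part of the mitochondrial and ribosomal protein shares in these changes was not tested.

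The same genes showed no called change with RNF26 in HCT116. Limma called 0 of 8, with 0 at an unadjusted p under 0.05, beside 0.00642% of all tested genes, which is RNF26 alone, while 657 genes had an unadjusted p under 0.05. The arms overlapped for all 9 genes, beside 12.8% of tested genes whose arms did not. PRMT1 stood at 456, 461 and 417 TPM in HCT116 RNF26 libraries, against 486, 478 and 433 TPM in HCT116 control libraries (log2 fold change -0.06). PRMT5 was more variable, at 243, 295 and 208 TPM in HCT116 RNF26 libraries, against 275, 228 and 232 TPM in HCT116 control libraries (log2 fold change 0.01). The other tested genes had fold changes between -0.12 (PRMT2) and 0.12 (WDR77), and standard errors over the 8 genes ran between 0.0860 and 0.138. After adjustment over all tested genes, changes of several such standard errors could also go uncalled, so smaller real changes are not excluded.

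**Figure D2:**
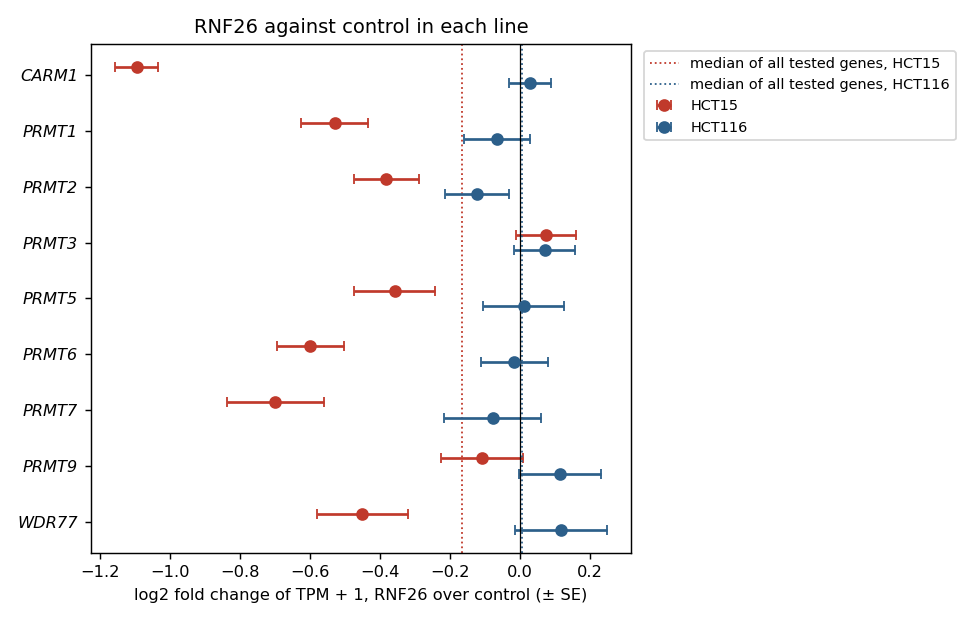
Log2 fold change of TPM + 1, RNF26 over control, for each gene in HCT15 (red) and HCT116 (blue), with bars of 1 SE from the fit of all 12 libraries and dotted lines at the median of all tested genes. The HCT15 values run between -1.09 (CARM1) and 0.08 (PRMT3), and the HCT116 values between -0.12 and 0.12.

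Tested directly, the RNF26 effect was lower in HCT15 than in HCT116 for 3 of the 8 genes, beside 18.7% of all tested genes. These were PRMT1 (HCT15 effect minus HCT116 effect of -0.46, adjusted p = 0.0329), PRMT6 (-0.58, adjusted p = 0.0136) and PRMT7 (-0.62, adjusted p = 0.0454). WDR77 at -0.57 (adjusted p = 0.0506), PRMT5 at -0.37 (adjusted p = 0.138), PRMT2 at -0.26, PRMT9 at -0.22 and PRMT3 at 0.01 were not called. Of the 3 calls, PRMT6 alone held without each library in turn. PRMT1 was not called without HCT15 control replicate 1, HCT15 RNF26 replicate 2, HCT116 RNF26 replicate 1 or 2 or any 1 HCT116 control library (adjusted p of 0.0508 to 0.0815). PRMT7 kept its call only without HCT15 control replicate 3 or HCT15 RNF26 replicate 2, and without any 1 of the other 10 libraries its adjusted p was 0.0507 to 0.108. WDR77 was called without HCT15 control replicate 3 (adjusted p = 0.0130), HCT15 RNF26 replicate 2 (0.0484) or HCT116 RNF26 replicate 3 (0.0441), and PRMT5 without HCT116 RNF26 replicate 3 (0.0335). None of the 8 was called under median-ratio scaling or after the GC and length correction. The RNF26 level itself differed between the lines, and its part in these differences cannot be told apart from that of the line.

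The control cells of the lines already differed in 7 of the 8 tested genes. Higher in HCT15 control cells than in HCT116 control cells were PRMT6 (log2 difference 0.34, adjusted p = 0.00766), PRMT7 (0.46, adjusted p = 0.0109) and PRMT9 (0.43, adjusted p = 0.00652), 3 of 8 beside 43.6% of all tested genes. Lower were WDR77 (-1.48, adjusted p = 1.3e-06), PRMT5 (-0.90, adjusted p = 2.82e-05), PRMT2 (-0.64, adjusted p = 7.89e-05) and PRMT3 (-0.27, adjusted p = 0.0156), 4 of 8 beside 26% of all tested genes. PRMT1 was not called at 0.08 (adjusted p = 0.494). CARM1 was higher by 0.90, given without a test. WDR77 gave the widest gap, with 9.66 to 14.2 TPM in HCT15 control libraries, against 33.8 to 36.5 TPM in HCT116 control libraries. PRMT3 was not called without HCT116 control replicate 3 (adjusted p = 0.0589), and PRMT7 was not called without HCT15 control replicate 1 (adjusted p = 0.0501). PRMT6, PRMT7 and PRMT9 were not called with GC content and length corrected for. PRMT1 turned to -0.10 and PRMT6 and PRMT7 lost their calls under median-ratio scaling, which set the median of all genes to 0.07, against 0.22 on the deposited scale. This comparison uses the same control libraries as those of RNF26 within each line, so it is no separate evidence on them.

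The order of the levels, on the TPM scale that divides by length, was led by PRMT1 and then PRMT5 in all 4 groups. In HCT15 RNF26 cells CARM1 at 27.2 TPM and PRMT2 at 26.4 TPM overlapped, as did PRMT3 with PRMT7 and PRMT9 with PRMT6. In HCT15 control cells CARM1 was the third gene at 59.3 ± 1.39 TPM, above PRMT2 at 34.7 ± 3.67 TPM (SD, n = 3 each), and WDR77 overlapped PRMT6. In both arms of HCT116 the order was PRMT1, PRMT5, PRMT2, WDR77, CARM1, PRMT3, PRMT7, PRMT6 and PRMT9, and no neighbours overlapped. Summed over the 8 enzymes the mRNA came to 538 ± 30.8 TPM in HCT15 RNF26 cells, 771 ± 57.6 TPM in HCT15 control cells, 823 ± 72.6 TPM in HCT116 RNF26 cells and 843 ± 49.6 TPM in HCT116 control cells (SD, n = 3 each). CARM1 made up 5.08% of this sum in HCT15 RNF26 cells, 7.73% in HCT15 control cells, 3.90% in HCT116 RNF26 cells and 3.73% in HCT116 control cells. Type I enzymes made up 75.7% to 79.5% of it in HCT15 RNF26 libraries and 78.4% to 80.6% in HCT15 control libraries, against 64.6% to 69.7% in HCT116 RNF26 libraries and 67.0% to 70.4% in HCT116 control libraries. CARM1 was 1.67 times PRMT3, a type I enzyme that was not called in either line, in HCT15 RNF26 cells, against 3.83 times in HCT15 control cells. That ratio was 1.61 in HCT116 RNF26 cells and 1.67 in HCT116 control cells, which restates the CARM1 values it was selected on.

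PRMT5 mRNA exceeded that of its partner WDR77 in every library. The ratio was 10.8, 10.8 and 14.7 in HCT15 RNF26 libraries, against 10.5, 9.34 and 13.3 in HCT15 control libraries. In HCT116 it was 6.58, 6.84 and 5.98 in RNF26 libraries, against 7.54, 6.54 and 6.86 in control libraries. The arms overlapped in each line (two-sided exact permutation test, p = 0.5 in HCT15 and p = 0.4 in HCT116), and the ratios of the control cells did not overlap between lines (p = 0.1, the smallest that 3 against 3 allows).

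Beyond the 9 genes, the rest of the pathway was read from lists of enzymes, partners, readers and substrates, with the 31.2% of all tested genes called lower in HCT15 as background. In the family itself, PRMT8 was listed at 0 in all libraries, and the protein methyltransferase genes METTL23 and NDUFAF7 were not called (log2 fold changes of 0.03 each). Of the 3 further partners of PRMT5, RIOK1, a kinase that bridges PRMT5 to its substrates, was lower at 17.5 ± 0.583 TPM in HCT15 RNF26 cells, against 27.4 ± 6.0 TPM in HCT15 control cells (log2 fold change -0.60, adjusted p = 0.00200). COPRS, which guides PRMT5 to histones, was called lower at -0.26 (adjusted p = 0.0110) but not without HCT15 RNF26 replicate 1 (adjusted p = 0.0504), under median-ratio scaling (0.696), in separate fits (0.0510) or with GC content and length corrected for (0.259). CLNS1A, the adaptor to spliceosomal Sm proteins, was at 0.20 and not called (adjusted p = 0.10), though it was called higher without HCT15 control replicate 2 (0.31, adjusted p = 0.00495).

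In the methyl donor cycle 4 of 12 tested genes were lower in HCT15, with a list median of -0.11. AHCY, which clears the S-adenosylhomocysteine left by every methylation, averaged 80.8 ± 1.12 TPM in HCT15 RNF26 cells and 133 ± 6.21 TPM in HCT15 control cells (SD, n = 3 each; log2 fold change -0.71, adjusted p = 4.34e-05). SRM, the spermidine synthase, was at -0.79 (adjusted p = 0.00358) and AHCYL1, a relative of AHCY, at -0.22 (adjusted p = 0.0283). AHCYL1 was not called without HCT15 control replicate 1 or 3 or HCT15 RNF26 replicate 1 or 3 (adjusted p of 0.0605 to 0.117). Among methylarginine readers, deiminases and breakdown enzymes 4 of 8 tested genes were lower, with a list median of -0.19. They were DDAH1, which degrades free methylarginine (-0.60, adjusted p = 0.000315), the Tudor proteins TDRKH (-0.55, adjusted p = 0.000679) and SND1 (-0.35, adjusted p = 0.00328), and the histone reader SPIN1 (-0.28, adjusted p = 0.0283). SPIN1 was not called without HCT15 control replicate 2 or 3 or HCT15 RNF26 replicate 1 or 3 (adjusted p of 0.0616 to 0.106). The reader list had 2 calls under median-ratio scaling, which ended those of SND1 (adjusted p = 0.113) and SPIN1 (0.56), and the donor cycle 2 with GC content and length corrected for, where AHCYL1 was not called (0.217), nor was it under median-ratio scaling (0.989).

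Lower in HCT15 were 7 of 11 genes of substrates and coactivator partners of CARM1, 8 of 11 of PRMT1 substrates and 3 of 8 of PRMT5 substrates, with list medians of -0.38, -0.40 and -0.23, beside -0.17 over all tested genes. In the CARM1 list, the coactivator CREBBP averaged 2.28 TPM in HCT15 RNF26 cells and 5.06 TPM in HCT15 control cells (log2 fold change -0.89, adjusted p = 0.00115), and the chromatin remodelling subunit SMARCC1 28.1 TPM in HCT15 RNF26 cells and 45.0 TPM in HCT15 control cells (-0.66, adjusted p = 0.000309). The RNA-binding protein gene ELAVL1 was at -0.70 (adjusted p = 0.000581) and the mediator subunit MED12 at -0.68 (adjusted p = 0.00250). In the PRMT1 list the mRNA export factor ALYREF averaged 87.9 TPM in HCT15 RNF26 cells and 155 TPM in HCT15 control cells (-0.81, adjusted p = 5.69e-05), followed by the RNA-binding protein gene EWSR1 (-0.68, adjusted p = 0.000109) and the repair factor TP53BP1 (-0.43, adjusted p = 0.0102). The count of the PRMT1 list was 5 of 11 without HCT15 control replicate 1 or HCT15 RNF26 replicate 1 or 3, 3 of 11 under median-ratio scaling, 5 of 11 with GC content and length corrected for and 4 of 11 in separate fits. The count of the CARM1 list was 4 of 11 under median-ratio scaling, and that of the PRMT5 list 1 of 8 in separate fits. TP53BP1 was not called under median-ratio scaling (adjusted p = 0.0788) or in separate fits (0.0516). In the PRMT5 list the Golgi protein gene GOLGA2 was at -0.64 (adjusted p = 0.000788), the Sm protein gene SNRPB at -0.42 (adjusted p = 0.00636) and the Cajal body gene COIL at -0.35 (adjusted p = 0.0169), while LSM4 was at -0.23 and not called. SNRPB was not called under median-ratio scaling (-0.20, adjusted p = 0.148), with GC content and length corrected for (-0.06, adjusted p = 0.65) or in separate fits (adjusted p = 0.06). COIL was not called without HCT15 control replicate 3 (adjusted p = 0.0552) or HCT15 RNF26 replicate 1 (0.0710), under median-ratio scaling (0.321) or in separate fits (0.0916), and LSM4 was called without HCT15 control replicate 3 (0.00827). These lists describe mRNA of the listed genes, not the methylation of their products, and RNF26 being the single call in HCT116, none of the listed genes was called there.

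**Figure D3:**
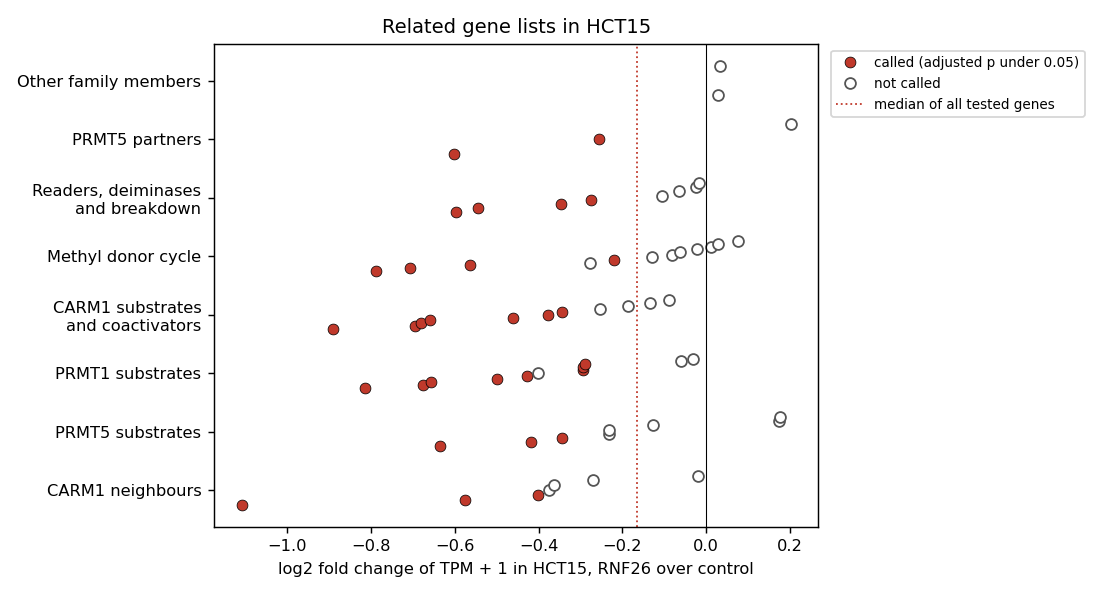
Log2 fold change of TPM + 1 in HCT15, RNF26 over control, for each tested gene of the related lists, with filled points for called genes and a dotted line at the median of all tested genes, -0.17. All called genes lie left of 0, between -1.11 (SMARCA4) and -0.22 (AHCYL1).

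Within 200 kb on either side of the CARM1 start, 7 protein-coding genes were tested and 3 were lower in HCT15, beside 31.2% of all tested genes, with a median log2 fold change of -0.38, beside -0.17 over all tested genes. Distances run from the CARM1 start to the lower coordinate of each gene. SMARCA4, the catalytic subunit of BAF chromatin remodelling complexes, lies 89.3 kb downstream and averaged 33.8 ± 1.42 TPM in HCT15 RNF26 cells, against 74.4 ± 9.95 TPM in HCT15 control cells (SD, n = 3 each; log2 fold change -1.11, SE 0.102, adjusted p = 4.8e-05). DNM2, a GTPase of endocytosis 153 kb upstream, was at -0.58 (adjusted p = 0.000493) and YIPF2, a Golgi membrane protein gene 50.7 kb downstream, at -0.40 (adjusted p = 0.00249), though not under median-ratio scaling (adjusted p = 0.0590) or with GC content and length corrected for (0.02, adjusted p = 0.846). The closest by this distance, C19orf38, was at -0.02 and TMED1 at -0.27, neither called. TMED1, TIMM29 and QTRT1 were called lower without HCT15 control replicate 3 (6 of 7 genes called), and TIMM29 and QTRT1 without HCT116 RNF26 replicate 3 (5 of 7). In HCT116 the values of the neighbours ran between -0.09 (SMARCA4) and 0.13 (TMED1).

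**Figure D4:**
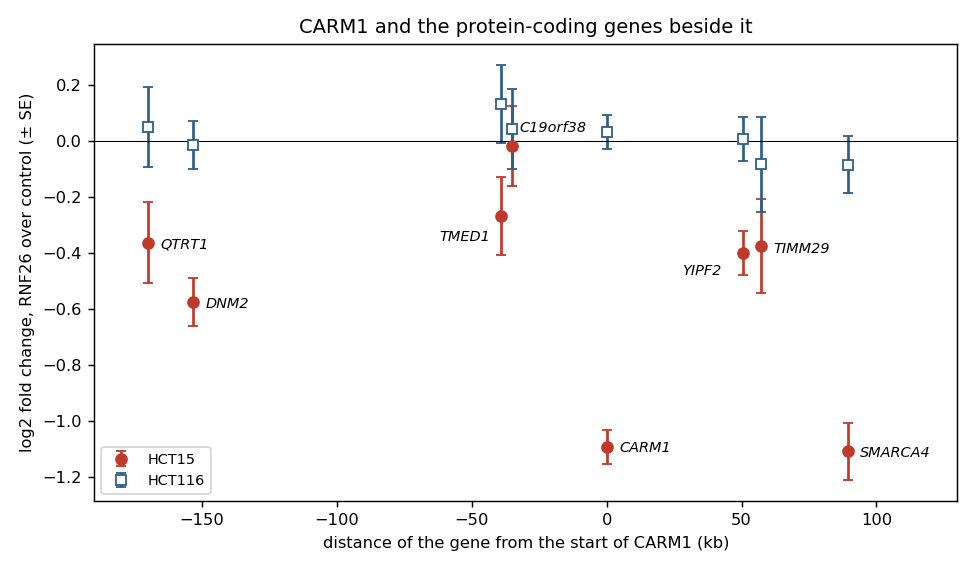
Log2 fold change, RNF26 over control, of CARM1 and its 7 tested protein-coding neighbours in HCT15 (red) and HCT116 (blue), by the distance of each gene from the CARM1 start in kb, with bars of 1 SE. CARM1 at -1.09 and its neighbour SMARCA4 at -1.11 lie lowest in HCT15, and the other neighbours lie between -0.58 and -0.02.

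Overlaps were taken between annotated gene spans, introns included, and the part within exons was not measured. The span of CARM1 overlaps that of YIPF2 on the opposite strand by 886 bases. WDR77 overlaps ATP5PB, which reaches 364 TPM, by 513 bases on the opposite strand. PRMT9 shares 34260 bases with TMEM184C on the opposite strand, which reaches 12 TPM, and PRMT5 shares 6390 bases with its antisense gene, which reaches 1.42 TPM. The labels do not say whether read strand entered the authors' quantification, so these levels carry that uncertainty.

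Among the 8 tested genes the fold change in HCT15 tended to be lower where the transcripts held more G and C. GC content, the median over the annotated transcripts of a gene, was 60.4% for CARM1, 57.4% for PRMT1 and 55.6% for PRMT7, against 41.3% for PRMT3 and 39.4% for PRMT9, the pair that was not called. Over the 8 genes, CARM1 left out because it was selected on this effect, Pearson's r was -0.842 and Spearman's rho -0.62 in HCT15, against -0.727 and -0.714 in HCT116, as a description of genes measured in the same libraries. The whole table had the same sign in HCT15, with r of -0.368 over 14849 tested genes. The median fold change in HCT15 was 0.04 in the decile of genes with the lowest GC content and -0.42 in the decile that holds CARM1, while in HCT116 the medians lay between 0.05 and -0.03. PRMT7 was 0.44 below the median of its decile, PRMT6 0.37 below and PRMT1 0.18 below. CARM1 was 0.67 below that of its own, where 2.42% of genes were lower, a place that its selection favoured. With GC content and length corrected for, the CARM1 fold change in HCT15 was -0.69.

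**Figure D5:**
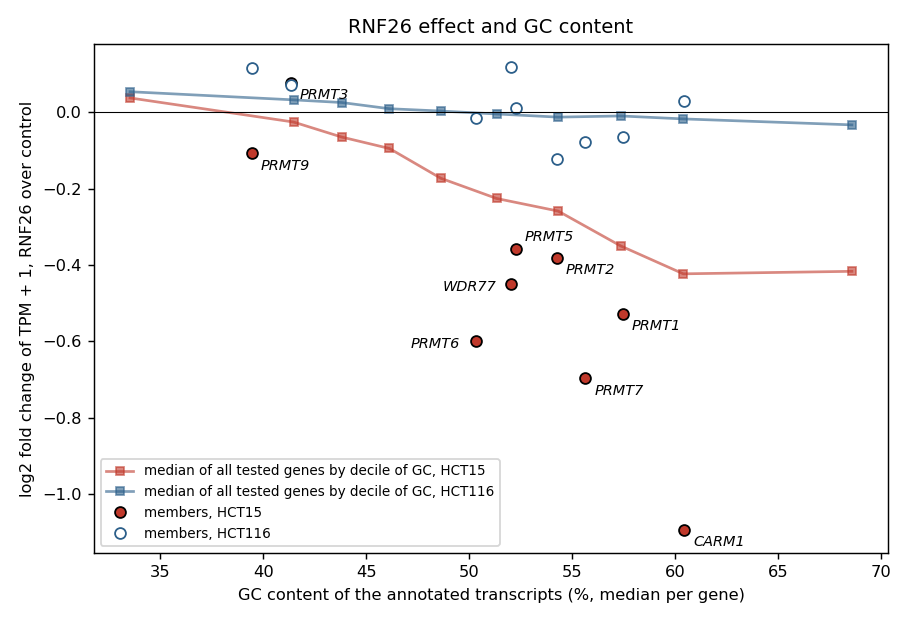
Log2 fold change, RNF26 over control, against the GC content of the annotated transcripts in percent, for the 9 genes in HCT15 (filled) and HCT116 (open), with lines through the medians of all tested genes by decile of GC content. The HCT15 line falls to -0.42 at high GC content while the HCT116 line stays between 0.05 and -0.03, and CARM1, PRMT7 and PRMT6 lie farthest below the HCT15 line.

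The pattern of CARM1 over the 12 libraries was most like that of ACAD9, among 9031 genes with a mean of 5 TPM or more. Likeness was the root mean square difference of log2 values centred on each gene's mean, 0.0906 for ACAD9, a mitochondrial complex I assembly factor, 0.0924 for CEP131, a centriolar satellite protein, 0.102 for the ubiquitin ligase MGRN1, 0.106 for the convertase PCSK7 and 0.109 for the actin crosslinker ACTN4. ACAD9 averaged 26.1 TPM in HCT15 RNF26 cells, 49.4 TPM in HCT15 control cells, 28.3 TPM in HCT116 RNF26 cells and 28.1 TPM in HCT116 control cells. Within the family PRMT7 came closest, at rank 449 (0.231), then PRMT6 at rank 480 (0.235) and PRMT1 at rank 1786 (0.337), while WDR77 was at rank 8510 (1.08).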

How the data were processed

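The authors deposited 1 table of TPM values with 2 decimals for 12 poly(A) RNA-seq libraries, whose columns each sum to about 1000000. The submitters' processing notes name RSEM, StringTie, HISAT2 and fastp and the build GRCh38, without versions or roles. Groups and replicate numbers came from the sample titles. Members and lists were chosen with earlier results of these data known.

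Genes with 1 TPM or more in at least 3 libraries, 15584 in number, were fitted on log2(TPM + 1) with limma 3.58.1 (R 4.3.3), with a mean per group, eBayes with a trend (8 residual degrees of freedom, prior 3.09) and two-sided tests. RNF26 cells were contrasted with control cells within HCT15 and within HCT116, both effects with each other, and HCT15 with HCT116 control cells. P-values were Benjamini-Hochberg adjusted over all tested genes and called under 0.05. The fit was tested on simulated data with independent genes, few of them changed and as many raised as lowered. In HCT15 most called genes were lower, so the simulation does not speak for that setting. No pair of libraries held identical values.

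Positions, overlaps, GC content and length came from the GENCODE annotation of GRCh38, with GC content for 95.28% of tested genes, and promoters from RefSeq (GRCh38.p14). Named genes were the members, RNF26, up to 4 genes of each list with the smallest p in HCT15, the 4 neighbours nearest to CARM1 and the 5 genes most like CARM1; the other neighbours and the extremes shown in figures were named after their values were seen. A few genes meeting this rule are not reported here. Alternatives were a pseudocount of 0.1 or 5, no filter or one of 5 TPM, median-ratio scaling over 7524 genes, a spline correction for GC content and length, separate fits of each line, a replicate block and leaving out each library.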

Additional observations from a re-analysis of the deposited data

Results flagged for a closer look

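Each gene below was picked out because the difference of its RNF26 effects between the lines passed the test itself (limma, adjusted p under 0.05 over all tested genes). Values are log2, HCT15 effect minus HCT116 effect, and 18.7% of all tested genes passed in the same direction. Among the methyltransferases these were PRMT1 (-0.46), PRMT6 (-0.58) and PRMT7 (-0.62). Among partners, readers and breakdown enzymes they were RIOK1 (-0.63), SND1 (-0.37), TDRKH (-0.44) and DDAH1 (-0.51), and in the methyl donor cycle AHCY (-0.59) and AHCYL1 (-0.32). Of the substrate and coactivator lists they were CREBBP (-0.94), SMARCC1 (-0.79), ELAVL1 (-0.68), EWSR1 (-0.68), ALYREF (-0.89), SNRPB (-0.51), COIL (-0.47) and GOLGA2 (-0.77). Beside CARM1 on chromosome 19 they were DNM2 (-0.56), YIPF2 (-0.41) and SMARCA4 (-1.02). All were lower in the HCT15 effect than in the HCT116 effect, and the genes of all lists share the same 12 libraries.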

How the results depend on the processing

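No alternative turned the direction of the CARM1 fold change in HCT15 or of its difference between lines. CARM1 was selected on this difference in the same libraries, which favoured a kept direction. In HCT15 it was -0.995 with a pseudocount of 5, -0.88 under median-ratio scaling and -0.69 after the GC content and length correction, and -1.11 to -1.08 without each library in turn. The difference between lines was -1.02, -0.90 and -0.74 under these settings and -1.18 to -1.08 without each library, and in HCT116 CARM1 ran between -0.01 and 0.08 without each library.

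Of the 8 tested members, 6 were called in HCT15, 4 with no filter, 4 in separate fits and 2 after the GC content and length correction. Under median-ratio scaling 3 were called lower and 1 higher, and 4 to 6 were called without each library. In the difference between lines 3 were called, 1 with no filter, 0 under median-ratio scaling, 0 after the GC content and length correction and 1 to 4 without each library. Between control lines 7 were called, 4 after the GC content and length correction and 6 to 7 without each library, and in HCT116 0 to 0 without each library. Called genes of the lists in HCT15 were 31, 20 under median-ratio scaling, 20 in separate fits and 23 to 33 without each library. COPRS turned to 0.0950 and YIPF2 to 0.0196 in HCT15 after the GC content and length correction, neither called. The cause was not tested.

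Of all genes, 5697 were called in HCT15 (4384 to 5878 without each library), 840 higher and 4857 lower, against 2242 higher and 2600 lower under median-ratio scaling and 1767 higher and 2406 lower after the GC content and length correction. In HCT116 1 was called, 11 with no filter, 3 in a separate fit and 1 to 3 without each library. The difference between lines gave 3190 genes, 2080 under median-ratio scaling, 1642 after the GC content and length correction and 1941 to 3857 without each library. Between control lines 10836 were called, and 10136 to 10859 without each library.

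Replicate numbers showed no clear pairing of the libraries, though with 3 libraries per group this check cannot exclude it. Deviations of same-numbered libraries correlated at 0.00895 to 0.146 in HCT15 and -0.0424 to -0.0254 in HCT116. In HCT15 2 of 6 libraries correlated best with their own number, and in HCT116 0 of 6. With the number as a replicate block the same 6 members were called in HCT15, and in the difference between lines PRMT1, PRMT6 and WDR77 (PRMT7 adjusted p = 0.0634). Depth is unknown, so no counting error is given, and TPM of a gene also moves with the share taken by other genes.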
